A study of Mus musculus with 4 samples.

Results

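The cytosolic ribosomal protein genes were compared between mouse pups reared in the dark and pups reared under a light cycle, in samples of thalamus with hypothalamus at postnatal day 14. Members were taken by name: a symbol of Rpl or Rps followed by a digit, or Rpsa, Rplp0, Rplp1 or Rplp2, with pseudogenes and the Rps6k kinases left out. This gave 84 genes of the 18350 with a symbol on the array, of which 83 passed the filter on dim probes and 1, Rpl39l, did not. By the prefix of the symbol, 50 of the 83 were counted in the large subunit (Rpl) and 32 in the small subunit (Rps). These counts include paralogs such as Rpl7l1 and Rps4l. Rps19bp1, which encodes a binding partner of the small subunit protein RPS19, matches the rule by its name alone and was counted in neither. Rpl10l had no matched probe and was not analysed here.

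Both groups held 2 samples, each hybridised to 1 one-colour (Cy3) Agilent array. The dark-reared mice were born to dams moved 1 to 4 days before delivery into a cage wrapped in black plastic and tended under dim red light, and they stayed in the dark until sampling. The control mice lived in ordinary cages with 12 h of light a day. The labels call the samples biological replicates and give neither strain, sex nor the number of animals in a sample, so any p-value measures the spread between these samples.

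A ribosome is built from ribosomal RNA and a fixed set of ribosomal proteins, each present once in a subunit apart from the acidic proteins of the large subunit's stalk. The stalk recruits the elongation factors during protein synthesis. Vertebrate mRNAs of ribosomal proteins share a start of uninterrupted pyrimidines, the 5′ terminal oligopyrimidine (TOP) tract, through which mTORC1 and LARP1 set how well they are translated. In neurons, phosphorylation of RPS6, which lies downstream of mTORC1 and of S6 kinases, is widely used as a readout of recent activity. Translation and phosphorylation were not measured here. An array measures mRNA alone.

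The shared start is shown for a few members, because it is the sequence feature that defines this class of mRNA. The windows hold 40 bases before the annotated start and 15 bases from it, 5′ to 3′ on the gene's strand, from RefSeq on GRCm38.p6 (the array's own annotation refers to mm9). Capitals mark an unbroken run of at least 6 C or T that covers the start base or reaches to within 3 bases of it. The first 7 genes carry such a run and the last 3 do not; Rpl36a, Rps19, Rpl12 and Rpl22l1 are among the members with the largest differences between the groups, and Rps6 and Rpl35 among those with the smallest.
Rps6 (chr4:86857353-86857407, minus strand): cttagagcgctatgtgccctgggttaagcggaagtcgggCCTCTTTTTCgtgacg
Rps18 (chr17:33955651-33955705, minus strand): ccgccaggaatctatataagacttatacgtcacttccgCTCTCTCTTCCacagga
Rplp2 (chr7:141447611-141447665, plus strand): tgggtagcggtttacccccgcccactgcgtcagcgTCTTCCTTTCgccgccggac
Rpl12 (chr2:32961672-32961726, plus strand): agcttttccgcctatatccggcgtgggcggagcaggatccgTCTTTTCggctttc
Rpl15 (chr14:18270972-18271026, minus strand): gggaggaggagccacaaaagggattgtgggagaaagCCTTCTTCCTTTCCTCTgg
Rpl22l1 (chr3:28805468-28805522, plus strand): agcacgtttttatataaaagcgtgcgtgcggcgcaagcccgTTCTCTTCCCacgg
Rpl35 (chr2:39005117-39005171, minus strand): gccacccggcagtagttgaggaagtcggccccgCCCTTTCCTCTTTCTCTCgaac
Rpl22 (chr4:152324396-152324450, plus strand): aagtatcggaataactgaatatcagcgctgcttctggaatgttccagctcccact
Rpl36a (chrX:134585614-134585668, plus strand): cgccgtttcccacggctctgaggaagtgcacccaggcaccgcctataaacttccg
Rps19 (chr7:24884552-24884606, plus strand): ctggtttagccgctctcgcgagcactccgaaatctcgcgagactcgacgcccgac

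Of the 84 members, 64 had an entry in the RefSeq promoter table. Of these, 28 (43.8%) carried the run at an annotated start, against 5217 of all 27025 genes with an entry (19.3%) and 2270 of the 11419 genes tested (19.9%). Among other genes known for TOP mRNAs, such as the elongation factors, the run was found in 5 of 11 (45.5%), and among the nuclear genes of the mitochondrial ribosome, whose mRNAs are not of this class, in 13 of 69 (18.8%). The longest runs in the printed windows were 18 bases in Rpl35 and 17 in Rpl15. A window without the run says only that these letters are not there at the annotated start.

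Values are log2 of the processed spot signal minus the array's 75th percentile, so that 0 is the signal at the 75th percentile of the array and a difference of 1 is a 2-fold difference. The 75th percentiles were close to each other, from 764.3 to 793.7 intensity units, and 65.8% to 73.2% of probes were well above background on each array. No spot was saturated. Control 1 lay on 1 slide, dark-reared 1 on another, and dark-reared 2 and control 2 shared the third. Xist, the RNA of the inactive X chromosome, was at 3.42 on dark-reared 1 and 3.79 on control 1 and was not well above background on the other arrays, and the Y-linked Ddx3y was at -0.32 and 1.07 on the dark-reared arrays 1 and 2 and at -6.54 and 1.18 on control arrays 1 and 2. The groups therefore held arrays with and without Xist signal in equal number. The arrays with Xist signal were unlike in Ddx3y, at -0.32 on dark-reared 1 and -6.54 on control 1. Equal numbers by Xist thus do not show that the groups matched in sex. Of the thalamic markers all 10 were tested, with median deviations from their own means of -0.74 and -0.011 on the dark-reared arrays and 1.32 and -0.44 on the controls, and 8 of 12 hypothalamic markers were tested, with -1.57 and 0.45 against 1.51 and 0.015. Signal of both regions was thus lowest on dark-reared 1 and highest on control 1.

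Messenger RNA of the ribosomal proteins differed little between the groups, and no member passed the test. All 83 tested members lay within 0.2 log2 units (1.15-fold) of equality, where 72.9% of all genes tested did. The differences, dark-reared minus control, ran from -0.189 in Rplp1 to 0.114 in Rps19, and 12 members exceeded 0.1 in size. Their median was -0.034 (SD 0.045 from the spread of the array medians, n = 2 a group), against -0.0065 over all 21417 genes tested. The median was -0.028 over the brightest of 4 equal classes of genes by signal, the top signal class. In this class fell 79 of the 83 members, and 12.5% of its genes differed by more than 0.2 in size.

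With limma, 0 of the 83 members and 0 of all 21417 genes (0%) had an adjusted p under 0.05. The lowest adjusted p was 1 among the members and 0.301 over all genes. At an unadjusted p under 0.05 there were 0 members against 267 genes in all (1.25%), and the lowest unadjusted p of a member was 0.309, that of Rpl36a. A difference of at least 2-fold without overlap of the groups was found in 0 members and in 1.20% of all genes. With 2 samples a group an exact permutation test of a single gene cannot go below p = 0.333.

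The 95% intervals give the sizes that these arrays leave possible. Over all 83 members the limits ran from -0.786 to 0.734 in log2, or a fold of 0.58 to 1.66, so every member's interval lay within 2-fold. The interval lay within 0.5 log2 units of 0 in 60 of the 83 members and in 18.3% of all genes tested, and the median half-width was 0.412 among the members. A difference of the size seen in most members is well inside these intervals and was not detectable with 4 arrays.

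**Figure D1:**
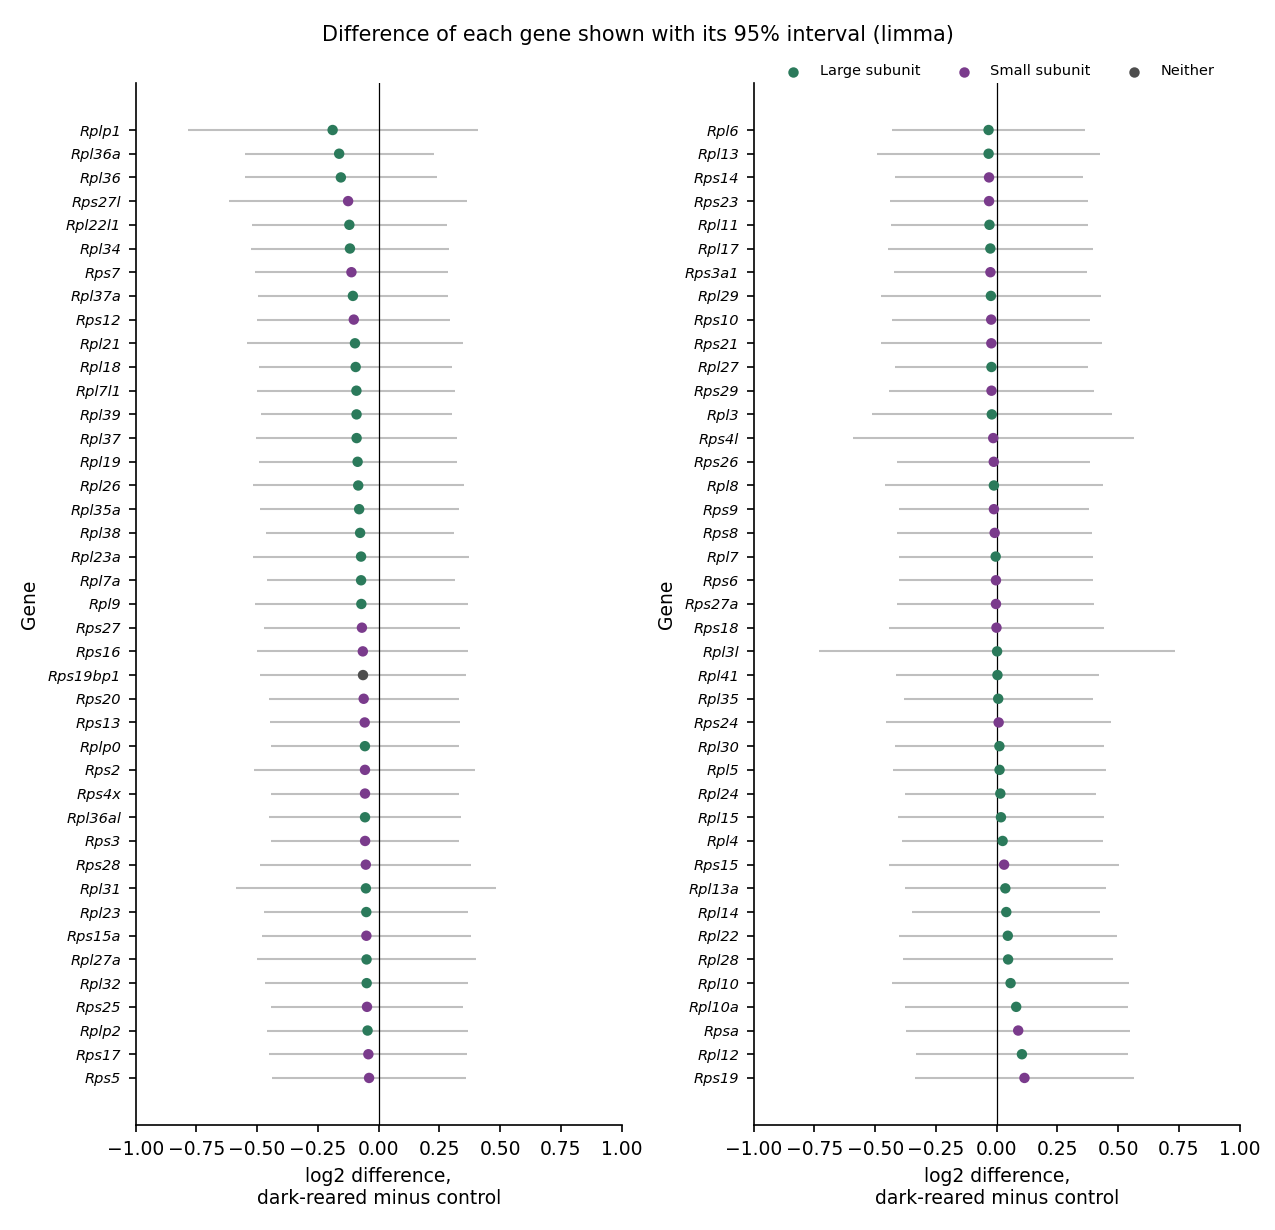
Difference between dark-reared and control tissue (log2, x axis) for the tested ribosomal protein genes, 1 of them left out (y axis, in order of size), with bars for the 95% interval from limma; colours give the subunit. All intervals include 0, and all points lie between -0.189 and 0.114.

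The proteins of the stalk held the lowest value of the set. Rplp1, which encodes an acidic protein of the stalk, was at 7.99 and 7.53 in the dark-reared samples and at 7.93 and 7.96 in the controls. Dark-reared 2 alone was low, the groups overlapped, and the difference of -0.19 (SE 0.214) had the widest spread within the dark-reared group of all large subunit members but Rpl3l, at an SD of 0.324 (n = 2). Without dark-reared 2 the difference of Rplp1 was 0.040. Rplp2, its dimer partner, was at 6.86 and 6.79 in the dark-reared samples and at 6.81 and 6.94 in the controls, a difference of -0.046 with overlap. Rplp0, on which the acidic proteins are anchored, was at 7.18 in both dark-reared samples and at 7.23 and 7.24 in the controls. The Rplp0 values did not overlap, and the difference was only -0.056 (95% interval -0.442 to 0.329).

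The next lowest members were Rpl36a, Rpl36, Rps27l, Rpl22l1 and Rpl34, of which Rps27l alone was counted in the small subunit. Of all 83 tested members, 50 were counted in the large subunit. Rpl36a was at 5.16 and 5.11 in the dark-reared samples and at 5.29 and 5.31 in the controls, a difference of -0.16 (95% interval -0.551 to 0.226) with no overlap. Rpl36 was at 5.34 and 5.42 against 5.52 and 5.55, a difference of -0.16 (SE 0.142), and again the groups did not overlap. Rpl34 was at 5.81 and 5.69 against 5.89 and 5.84, a difference of -0.12 (SE 0.146). In these 3 genes every dark-reared value lay below every control value, by gaps no larger than those seen between samples of 1 group elsewhere in the set. Rpl22l1 and Rps27l were lower by like amounts and are described with their paralogs.

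The members at the high end came from both subunits. Rps19, the small subunit gene most often mutated in Diamond-Blackfan anaemia, was at 3.43 and 3.45 in the dark-reared samples and at 3.21 and 3.44 in the controls, so that its difference of 0.11 (SE 0.161) came from control 1 and was -0.0007 without it. Rpl12, a protein at the base of the stalk, was at 6.38 and 6.57 against 6.33 and 6.42, a difference of 0.10 with overlap. Rpl10a was at 3.49 and 3.67 against 3.41 and 3.59, a difference of 0.080 with overlap.

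Members with known roles beyond the core of the ribosome showed differences of the same size. Rps6, the substrate of the S6 kinases, was at 3.19 and 3.28 in the dark-reared samples and at 3.22 and 3.26 in the controls, a difference of -0.0032 (95% interval -0.402 to 0.395). The Rps6 controls lay between the dark-reared values. Rpsa, also known as the laminin receptor, was at 4.48 and 4.46 against 4.25 and 4.51, a difference of 0.088 that was -0.038 without control 1. Rpl13a, a protein that also takes part in silencing inflammatory mRNAs, was at 4.90 and 4.97 against 4.83 and 4.97, a difference of 0.035. Rpl4, a core protein of the peptide exit tunnel, was at 1.80 and 1.90 against 1.76 and 1.88, a difference of 0.024. In Rpl13a and Rpl4 the groups overlapped.

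Some ribosomal proteins are made as fusions with a ubiquitin-like head. Rps27a, in which ubiquitin precedes the small subunit protein, was at 5.65 and 5.77 in the dark-reared samples and at 5.73 and 5.69 in the controls, a difference of -0.0031. Fau, which falls outside the naming rule and joins a ubiquitin-like protein to a small subunit protein, was at 7.10 and 7.21 against 7.18 and 7.34, a difference of -0.10. Rack1, a signalling scaffold on the small subunit and also outside the rule, was at 6.22 and 6.44 against 6.34 and 6.37, a difference of -0.024. The groups overlapped in all 3 genes, and none passed the test.

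Paralogs allow the ubiquitous protein to be set beside its relative, as differences only, since signals of different probes are not on 1 scale. Rpl22, a large subunit protein, was at 4.13 and 3.97 in the dark-reared samples and at 3.92 and 4.08 in the controls, a difference of 0.046, while its paralog Rpl22l1 was at 4.93 and 5.03 against 5.09 and 5.12, a difference of -0.12 (SE 0.144). The groups overlapped in Rpl22 and not in Rpl22l1, and neither passed the test. Rpl3 was at 5.25 and 5.29 against 5.14 and 5.44, a difference of -0.020, and Rpl3l, its relative of striated muscle, was at -3.61 and -4.22 against -3.99 and -3.85, a difference of 0.0015. Rpl3l was the dimmest member tested and had the widest range over the arrays, 0.611.

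Rps27 was at 6.14 and 6.15 in the dark-reared samples and at 6.15 and 6.27 in the controls, a difference of -0.069 without overlap, and Rps27l, a paralog induced by p53, was at 3.03 and 2.95 against 3.27 and 2.97, a difference of -0.13 (SE 0.176) with overlap. Rpl7 was at 6.22 and 6.13 against 6.16 and 6.20, a difference of -0.0043, and Rpl7l1, a relative known from ribosome assembly, was at 0.054 and 0.060 against 0.082 and 0.22, a difference of -0.091 without overlap. Rpl36al, the autosomal copy of Rpl36a, was at 3.30 and 3.32 against 3.41 and 3.33, a difference of -0.056 without overlap. Rps4l, listed under an accession for a non-coding RNA, was at 1.81 and 2.19 against 2.12 and 1.91, a difference of -0.014. Rpl39l, the relative of Rpl39 best known from testis, had 2 probes, neither of them well above background on any array, and no difference is given for it.

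The X-linked members are Rps4x, Rpl10, Rpl36a and Rpl39. Rps4x, the X-linked copy of a small subunit gene, was at 5.73 and 5.74 in the dark-reared samples and at 5.78 and 5.80 in the controls, a difference of -0.056. Rpl39, a small protein of the exit tunnel, was at 5.35 and 5.28 against 5.41 and 5.41, a difference of -0.091. Rpl10, which joins the large subunit late in its assembly, was at 4.73 and 4.89 against 4.63 and 4.88, a difference of 0.057. The groups did not overlap in Rps4x, Rpl39 and Rpl36a, all lower in dark-reared, and did in Rpl10. Groups did not overlap in 26.5% of all tested members and 19.1% of all genes, and 9.57% of all genes were lower without overlap. At both other probes of Rpl36a the groups overlapped. Each group held 1 array with Xist signal, but these arrays were unlike in Ddx3y. The part of sex in the X-linked values was not tested.

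Lower values in dark-reared tissue were more common than higher ones at the 75th percentile scaling, with 63 members lower and 20 higher. Of the 50 large subunit members 34 were lower and 16 higher (median -0.040), and of the 32 small subunit members 28 were lower and 4 higher (median -0.032). This split depended on how the arrays were scaled. With each array's median in place of its 75th percentile, 43 were lower and 40 higher; with quantile normalization, and likewise with the authors' deposited log2 values, 32 were lower and 51 higher. With normexp background correction 4 were lower and 79 higher, and the median of all genes moved to -0.115 there; its background fit failed on control 2. With outlying local backgrounds replaced before normexp, 49 were lower and 34 higher (median -0.013). Leaving out the failed fit, 42 members kept their sign under the other scalings, 25 of them lower and 17 higher. With the failed fit counted as well, 20 did, 3 of them lower (Rplp1, Rpl36 and Rpl7l1) and 17 higher. All of these scalings gave a member median above the -0.034 reported, so a higher member was the more likely to keep its sign.

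The groups did not overlap in 22 members (26.5%), against 19.1% of all genes tested and 16.7% of the genes in the top signal class. Of the 22, 2 were higher in dark-reared tissue (Rpl14 among them) and 20 lower, where 9.53% of all genes were higher and 9.57% lower without overlap. The top signal class leaned the same way, with 622 of its 5354 genes lower without overlap and 273 higher, and 3191 lower against 2163 higher in all. The 20 were Rpl36a, Rpl36, Rpl22l1, Rpl34, Rps7, Rpl37a, Rps12, Rpl18, Rpl7l1, Rpl39, Rpl38, Rpl7a, Rps27, Rps20, Rps13, Rplp0, Rps4x, Rpl36al, Rps3 and Rps14, with differences from -0.162 to -0.032. The count was 13 with array medians or the deposited log2 values and 17 with quantile normalization, so the share was near that of all genes there (15.7% and 20.5%, against 20.0% with array medians, 19.2% with the deposited values and 19.3% with quantiles over all genes).

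**Figure D2:**
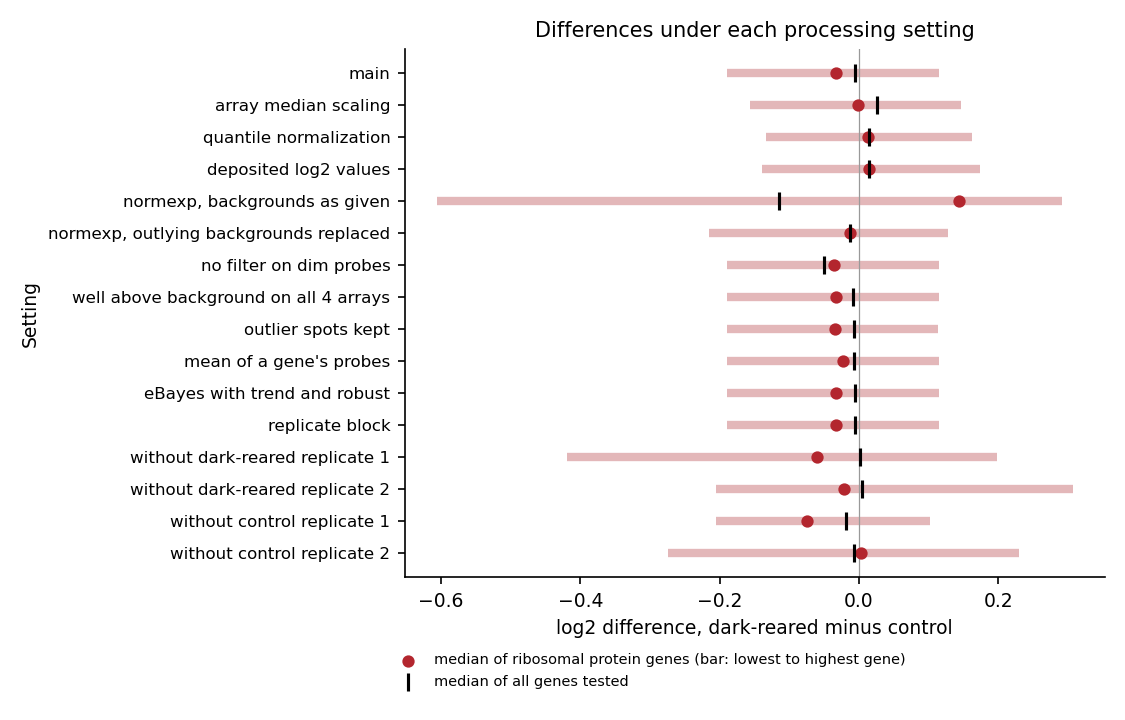
Difference between the groups (log2, x axis) under each way of processing (y axis): red points are the median of the ribosomal protein genes, red bars run from the lowest to the highest of them, and black ticks are the median of all genes tested. The median lies at -0.034 as reported, at 0.014 with quantile normalization and at 0.0028 without control 2, and no setting gives a called member.

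The members varied little from array to array. The median over the members of the range across the 4 arrays was 0.168, against 0.42 over all genes and 0.303 over the genes of the top signal class. The median pooled SD within groups was 0.074 among the members, 0.20 over all genes and 0.147 in the top signal class. That class began at a signal of 1.247 while the median member was at 5.731, so it was not matched to the members in signal. A narrow spread was not particular to the members. Over 37 initiation and elongation factors, described below, the median range was 0.176 and the median pooled SD 0.065. In 77 members (92.8%) the range over the 4 arrays was under 0.3, as in 33.4% of all genes tested. The narrowest was Rpl35, at 5.58 and 5.60 in the dark-reared samples and at 5.56 and 5.61 in the controls, a range of 0.046. The 6 members with a range over 0.3 were Rpl3l, Rplp1, Rps4l, Rpl31, Rps27l and Rpl3.

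**Figure D3:**
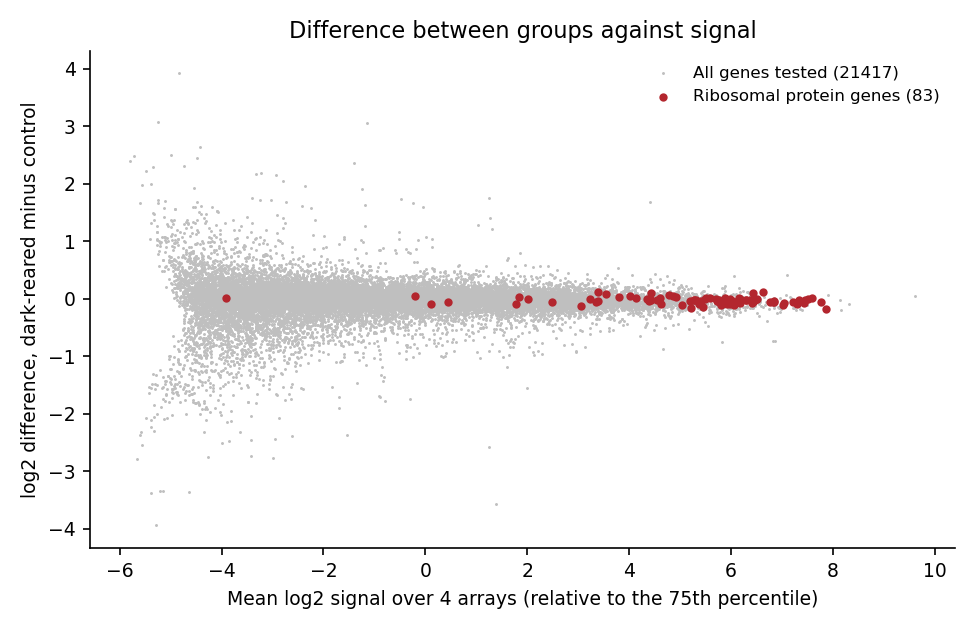
Difference between dark-reared and control tissue (log2, y axis) against the mean log2 signal over the 4 arrays (x axis, relative to the 75th percentile): grey points are the 21417 genes tested and red points the 83 ribosomal protein genes. The differences of all genes spread most at low signal, and 79 of the red points lie in the top signal class, between -0.189 and 0.114.

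Limma draws each gene's spread towards the spread of the array as a whole, which widens the intervals of a set this narrow. The median SE of a member was 0.148 in the test reported and 0.112 when the prior spread followed the signal (the trend and robust options), where the lowest unadjusted p was 0.176 and again no member passed.

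Differences between samples of 1 group were as large as those between groups. Over the members the median absolute gap was 0.083 between the dark-reared samples and 0.085 between the controls, and from 0.066 to 0.109 in the 4 pairs across groups. The median deviation of the members from their own means was -0.0033 and -0.043 in the dark-reared samples 1 and 2 and -0.021 and 0.060 in controls 1 and 2. Control 2 had the highest value of the 4 arrays in 47 of the 83 members and the lowest in 1, and dark-reared 2 the lowest in 39. Over all genes control 2 was highest in 4587 and lowest in 3743 of 21417. Without control 2 the members split into 40 lower and 43 higher, with a median of 0.0028. Without control 1 the split was 75 lower and 8 higher, with a median of -0.074.

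The arrays that shared a slide, dark-reared 2 and control 2, were the lowest and the highest of the set. Within that slide the median difference was -0.104, with 66 members lower and 17 higher, from -0.435 in Rplp1 to 0.281 in Rps4l, while over all genes it was -0.012. The part of slide and of array in the members' differences was not tested, since each of the other slides held 1 array.

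**Figure D4:**
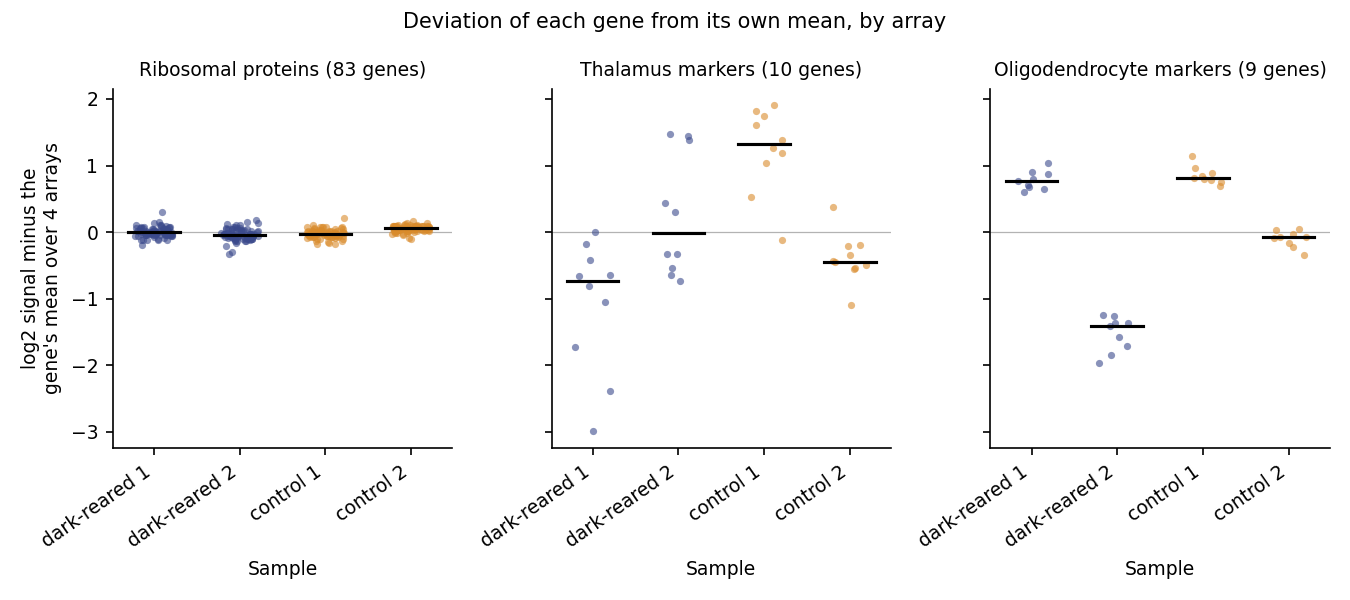
Deviation of each gene from its own mean over the 4 arrays (log2, y axis) by sample (x axis) for the 83 ribosomal protein genes, 10 thalamic markers and 9 oligodendrocyte markers; points are genes and black lines medians. The medians of the ribosomal genes lie between -0.043 and 0.060, and those of the thalamic markers between -0.74 and 1.32.

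The array medians of the ribosomal protein genes spread less than those of markers of regions and cell types, and more than those of all genes. They spanned 0.102, against 2.05 for thalamic markers and 2.23 for oligodendrocyte markers. Over all genes the span was 0.0077, and in the top signal class 0.047. Among the mitochondrial ribosomal proteins it was 0.067, and among 3 further ribosomal subunit genes outside the naming rule 0.180. All 10 thalamic markers were lower in dark-reared tissue (median -0.79) and 7 of 8 hypothalamic ones (median -1.35), all 9 oligodendrocyte markers were lower (median -0.75), all 6 choroid plexus markers were higher (median 1.28) and 8 of 9 markers of cortex and hippocampus were higher (median 0.53). Single arrays stood out in some of these lists. The median deviations of the oligodendrocyte markers were 0.76 and -1.42 in the dark-reared samples and 0.81 and -0.071 in the controls, and dark-reared 2 was lowest in all 9. Those of the choroid plexus markers were 1.08 and 0.29 against 0.90 and -2.18, and control 2 was lowest in all 6. The cortex and hippocampus markers did not follow 1 array, at 0.46 and 0.13 against -0.37 and -0.43. Their groups did not overlap in 4 of 9 (44.4%, against 19.1% of all genes). Within the shared slide the thalamic and hypothalamic markers went the other way, with median differences of 0.52 and 0.50. None of these genes passed the adjusted threshold. Markers shared by neurons in general spanned 0.24, those of astrocytes 0.156 and those of endothelium 0.207. Those of microglia spanned 0.70, those of blood 0.44 and those of proliferation 0.31. In bulk tissue fewer cells of a type and less RNA per cell cannot be told apart, and the part of tissue makeup in the ribosomal values was not tested.

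Where a member had more than 1 probe, the probes often disagreed in sign. Of the 30 members with more than 1 probe past the filter, the probes differed in sign in 16, with a median gap of 0.066 and a largest gap of 0.205, in Rpl7l1. The Rpl34 probe used was lower in dark-reared tissue by 0.12, whereas its other probe was at 4.70 and 4.68 in the dark-reared samples and 4.68 and 4.55 in the controls, a difference of 0.073. The second probe of Rplp0 was at 4.78 and 4.94 against 4.72 and 4.84, a difference of 0.077, and that of Rpl36 at 5.07 and 5.13 against 5.06 and 5.11, a difference of 0.016. Both other probes of Rpl36a were lower, by 0.074 and 0.041, with overlap of the groups. Rpsa went from 0.088 at the brighter probe to -0.11 at the dimmer one.

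In 7 members with several probes the groups did not overlap at the brightest probe (Rpl34, Rpl36, Rpl36a, Rpl7a, Rpl7l1, Rplp0 and Rps3), and 0 of these had another probe without overlap in the same direction. Over all named genes this held for 256 of 863 (29.7%). Taking the mean of a gene's probes in place of the brightest gave 58 members lower and 25 higher. Genes of this family have many processed pseudogenes and close copies in the mouse genome, and whether a probe also binds their transcripts was not tested.

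**Figure D5:**
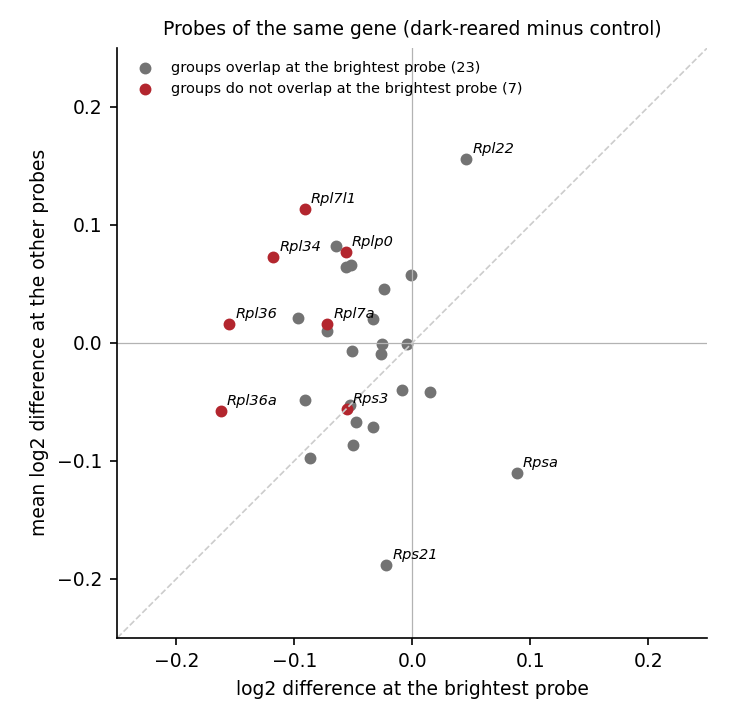
Difference between the groups (log2) at the brightest probe (x axis) and the mean difference at the other probes (y axis) for the 30 ribosomal protein genes with several probes past the filter; red points are genes whose groups do not overlap at the brightest probe, and the dashed line marks equality. Of the 7 red points, Rpl7l1, Rplp0, Rpl34, Rpl36 and Rpl7a lie above 0 on the y axis and below 0 on the x axis.

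Members with and without the run of pyrimidines overlapped in their differences. The 27 tested members with the run had a median difference of -0.023, from -0.12 in Rpl22l1 to 0.10 in Rpl12, and the 36 with an entry and no run had a median of -0.054, from -0.16 in Rpl36a to 0.11 in Rps19. Both ends of each range are among the sequences printed above.

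The other genes of the translation pathway were taken from lists, and none of their genes passed the test. Of 17 further genes known for TOP mRNAs, 7 were higher and 10 lower (median -0.028). The most distant were Vim, which encodes an intermediate filament protein, at 2.01 and 2.29 in the dark-reared samples against 1.98 and 1.99 in the controls, Eef1d, a subunit of the elongation factor 1 exchange complex, at 3.59 and 3.80 against 3.90 and 3.78, and Pabpc1, the poly(A)-binding protein, at 5.57 and 5.47 against 5.25 and 5.54. Groups overlapped in Eef1d and Pabpc1 and not in Vim. Of 37 initiation and elongation factors 13 were higher and 24 lower (median -0.0072), with Abce1 (0.14), which recycles ribosomes, Eif2s1 (-0.14), the regulated subunit of eIF2, and Eef1a2 (-0.13), the elongation factor of mature neurons, farthest from 0.

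Upstream of the ribosome, the 22 genes of the mTORC1 pathway and S6 kinases had 13 higher and 9 lower values (median 0.023). Eif4ebp1, the repressor of cap-dependent initiation that mTORC1 inactivates, was at -0.66 and -0.42 in the dark-reared samples and at -1.13 and -0.71 in the controls, a difference of 0.38. Rps6ka1, a kinase of the RSK family, was at -0.11 and 0.73 against 0.54 and 0.83, a difference of -0.37 that was 0.043 without dark-reared 1, and Rps6ka2 differed by 0.20. The Eif4ebp1 values did not overlap and those of Rps6ka1 did. Of 41 ribosome biogenesis factors 26 were higher and 15 lower (median 0.011), led by Gar1 (0.23) and Dkc1 (0.20), proteins of the particles that pseudouridylate ribosomal RNA, and Rrs1 (0.17), an assembly factor of the large subunit.

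The ribosomal proteins of mitochondria, encoded by separate nuclear genes, were lower in 59 of 78 and higher in 19 (median -0.048), and 0 of them passed the test. Groups did not overlap in 25 of them (32.1%, 23 lower and 2 higher), beside the 26.5% of cytosolic members and 19.1% of all genes. The farthest were Mrps5 at 0.92 and 0.84 in the dark-reared samples against 1.08 and 1.24 in the controls, Mrpl49 at 1.78 and 1.62 against 2.05 and 1.87, and Mrpl20 at 4.78 and 4.67 against 4.99 and 4.92. In all 3 genes both dark-reared values lay below both control values. The number lower was 55 with quantile normalization and with the deposited log2 values and 44 with array medians. Without overlap, 19 were lower and 2 higher with quantiles, 20 and 2 with the deposited values, and 15 and 6 with array medians. With normexp after outlying backgrounds were replaced, 19 were lower and 8 higher without overlap. With the failed normexp fit 26 of 78 were lower, and 3 were lower and 11 higher without overlap.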

How the data were processed

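Total RNA of 4 samples was measured on one-colour Agilent arrays. Per the file headers, spot intensity values came from version 10.7.3.1 of Agilent Feature Extraction, run by the authors (10.7 per the submitters' processing notes). The processed intensity is background-subtracted and detrended within 1 array. A deposited table of log2 values by probe, also from the authors, had a median of 6.838 on every array and correlated at 0.9989 to 0.9997 with log2 of the processed signal. How it was normalized is not stated in the sources used here, and it served as an alternative.

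Outlier spots were left out, spots of a probe averaged, and each array's 75th percentile subtracted on the log2 scale. A probe was kept if either group had it well above background on both of its arrays (28432 probes), and the brightest probe stood for a gene. Names came from RefSeq accessions (GRCm38.p6 table, names alone). This left 21417 genes or unnamed accessions, tested with limma 3.58.1 in R 4.3.3 (lmFit, eBayes, two-sided, Benjamini-Hochberg over all, threshold 0.05). The procedure was first tested on simulated data with planted differences of at least 2-fold. These were larger than any difference among the members, so the simulation does not bear on differences of that size. The number of arrays limits the precision.

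The members, lists and markers were chosen with earlier results of these data known. Of the genes that the rule picked, some are left out of the text and are not reported here. Genes named are the 6 members farthest from 0 in each direction, fixed members of known role, paralogs, members failing the filter, and up to 3 genes farthest from 0 in each list. Others named were singled out after their values were seen (Rpl35, Rps18, Rpl15, Rps21 and Rps15a, and those listed for lack of overlap or for their range). The processing was varied by scaling on array medians or by quantiles, by the deposited values, by normexp (on median spot signals, since mean signals are not among the columns), by keeping dim probes or asking for all 4 arrays above background, by keeping outlier spots, by the mean of probes, by the trend and robust options of eBayes, by blocking on the replicate number, and by leaving out each array in turn. Same-numbered samples are not stated to be paired.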

Additional observations from a re-analysis of the deposited data

How the results depend on the processing

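With limma, 0 members and 0 genes passed in each of the 11 alternatives with all arrays and the 4 that left out 1 array, and the lowest unadjusted p of a member ran from 0.176 to 0.452 and from 0.102 to 0.493. Of 736 comparisons of 46 named genes with an alternative, 645 stayed within 1 SD. The median of the members was -0.0013 with array medians, 0.014 with quantile normalization, 0.015 with the deposited log2 values, 0.143 with normexp, -0.013 with normexp after outlying backgrounds were replaced and -0.104 within the shared slide; leaving out arrays gave -0.074 to 0.0028. The median of the other TOP mRNA genes was 0.0041 with array medians, 0.012 with quantiles, 0.013 with the deposited log2 values, 0.146 with normexp, 0.0022 with normexp after outlying backgrounds were replaced, 0.024 with the mean of probes, 0.012 within the slide and -0.035 to 0.025 without 1 array. That of the initiation and elongation factors was 0.025 with array medians, 0.133 with normexp, 0.049 within the slide and -0.033 to 0.020 without 1 array. That of the mTORC1 genes was 0.055 with array medians, 0.060 with normexp and -0.011 to 0.043 without 1 array, and that of the biogenesis factors 0.056 with normexp and -0.0080 to 0.080 without 1 array. That of the mitochondrial ribosomal proteins was -0.016 with array medians, -0.028 with quantiles, -0.027 with the deposited log2 values, 0.066 with normexp, -0.035 with normexp after replacement and -0.063 to -0.042 without 1 array. That of the further ribosomal subunit genes, Fau and Rack1 among them, was 0.122 with normexp and -0.131 to -0.0052 without 1 array. Normexp fitted a background mean of -236 on control 2 against -1.9, -5.7 and 2.97 on the other arrays, so its values rest on a failed fit; the cause of the other shifts was not tested. With the replicate number as a block the member median was the same -0.034 and 0 members and 0 genes were called; same-numbered samples deviated with a correlation of -0.157 over all genes. With the numbers crossed, a pairing chosen after seeing the data, 0 members and 0 genes were called. Signal over background limits Rpl39l, and 2 samples a group limit the rest. Rpl3l was the dimmest member tested but was well above background on all 4 arrays.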

Other observations

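At members with several probes, the brightest probe gave the lower difference, dark-reared minus control, in 21 of 30 (70%), with a median of -0.049 for the brightest probe minus the mean of the others. Over all 5188 named genes with several probes past the filter it did so in 2604 (50.2%), with a median of -0.0006. Rpl22 was among the 21, at 0.046 with its brightest probe and 0.16 with its other probe, and Rps21 went the other way, at -0.022 and -0.19. This pattern was noticed after the values were seen and was not tested.

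The stalk gene Rplp1 and the dim Rpl3l had the largest gaps between the dark-reared samples, and Rps4l went from 1.81 in dark-reared 1 to 2.19 in dark-reared 2. In Rps15a the brightest probe lay between 4.29 and 4.47 on the 4 arrays, whereas its dim second probe lay at -3.20 and -1.63 in the dark-reared samples and at -2.07 and -2.58 in the controls.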
